A study of Macaca fascicularis with 86 samples.

Results

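The histone cluster genes are the genes for linker histone H1 and core histones H2A, H2B, H3 and H4. They were chosen by their gene symbols (H1- followed by a number, H2AC, H2BC, H3C or H4C followed by a number), with earlier results of these data known, including a lower level of some of them at E20. Of 17023 genes in the table, 22 matched: 5 H1 genes, among them H1-4, H1-5 and H1-8 of the clusters and H1-10, which lies outside them, 6 H2A genes, 10 H2B genes and 1 H3 gene (H3C15), with 0 H4C rows. A level of at least 1 TPM in at least 10 regions was reached by 19 of the 22. H2AC1, H2BC1 and H1-8 were left out of the tests, with such a level in 5, 4 and 3 regions. TPM (transcripts per 1000000) is a share of the reads scaled by gene length, which puts all genes on 1 scale. For these genes, rankings and shares on it describe captured and assigned reads. They need not follow the true amounts of each mRNA, for the reasons of capture, shared reads and overlapping genes given below.

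Polyadenylated RNA was measured by Geo-seq, in which small pieces of tissue sections are cut out with a laser and sequenced, in gastrulating embryos of the crab-eating macaque. The E20 group is 1 embryo with 36 regions in 7 sections, and the E18 group is 2 embryos, embryo 1 with 15 regions in 4 sections and embryo 2 with 35 regions in 6 sections, at 5 to 50 cells per region. The labels give no treatment, genotype, sex or tissue for any embryo, number the sections and the sectors of a section, and do not say where in the embryo the numbering starts. Each region is a mixture of cells, so fewer cells of a type and less RNA per cell cannot be told apart. The deposited TPM keep no read counts and the depth of each region is unknown. Genes at 1 TPM or more averaged 9045 per region in the E20 embryo, 10343 in E18 embryo 1 and 12415 in E18 embryo 2.

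Histones H2A, H2B, H3 and H4 form the protein core around which DNA is wound, and H1 binds the DNA between cores. Most genes for them sit in clusters, are transcribed during S phase when new DNA has to be packaged, and give mRNAs that end in a stem-loop held by the protein SLBP in place of a poly(A) tail. H1-10 lies apart from the clusters and gives polyadenylated mRNA through the cell cycle. Libraries from polyadenylated RNA take up mRNAs without a tail poorly, so a level of a cluster gene here is the level of what was captured. Several members are nearly identical in their coding sequence, so that reads may have been split between them. In the T2T-MFA8v1.1 RefSeq annotation, in which 12 of the 22 were found by symbol, H2AC20 overlaps H2AC21. There H1-4 also overlaps the gene LOC102123651, and H1-5 the gene LOC102118844. Whether the counting used strand is not given in the sources used here.

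H2AC20, an H2A gene, was the most abundant member in every embryo. Its TPM had a lowest value of 0.366, a median of 178 and a highest value of 591 in the E20 embryo, against 311, 489.8 and 851 in E18 embryo 1 and 151, 330.1 and 650.0 in E18 embryo 2. The ranges overlapped, and the value of 0.366 came from 1 region, section 2 sector 3. Across the 86 regions H2AC20 averaged 321 TPM, followed by the linker histone gene H1-4 with 101.5 TPM, H2AC14 with 100.3 TPM and H1-5 with 67.2 TPM. H2BC9, H2AC7, H2BC21, H2AC6, H3C15, H2BC5 and H2AC21 averaged between 21.0 and 11.0 TPM. A further 10 members averaged 8.49 TPM or less, down to 0.102 TPM for H1-8, the linker histone of oocytes.

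Summed over the 20 members that lie in the clusters, the level was 325 ± 170 TPM in the E20 embryo (SD, n = 36 regions), 932 ± 253 TPM in E18 embryo 1 (n = 15) and 1055 ± 467 TPM in E18 embryo 2 (n = 35). Regions ran from 115 to 890.4 TPM in the E20 embryo, from 581 to 1420.2 TPM in E18 embryo 1 and from 416 to 2008 TPM in E18 embryo 2, so the stages overlapped. H2AC20 held 58.0% of this sum in the E20 embryo, 57.0% in E18 embryo 1 and 34.7% in E18 embryo 2. H2AC14 held 2.69% of it in the E20 embryo, 4.36% in E18 embryo 1 and 20.9% in E18 embryo 2. E18 embryo 2 stood apart from the other embryos in both shares. By family, H2A genes summed to 222, 641 and 647 TPM in the E20 embryo, E18 embryo 1 and E18 embryo 2, and H1 genes of the clusters to 53.3, 196 and 276 TPM. H2B genes summed to 41.9, 72.4 and 109.7 TPM in the same order, over 10 genes.

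**Figure D1:**
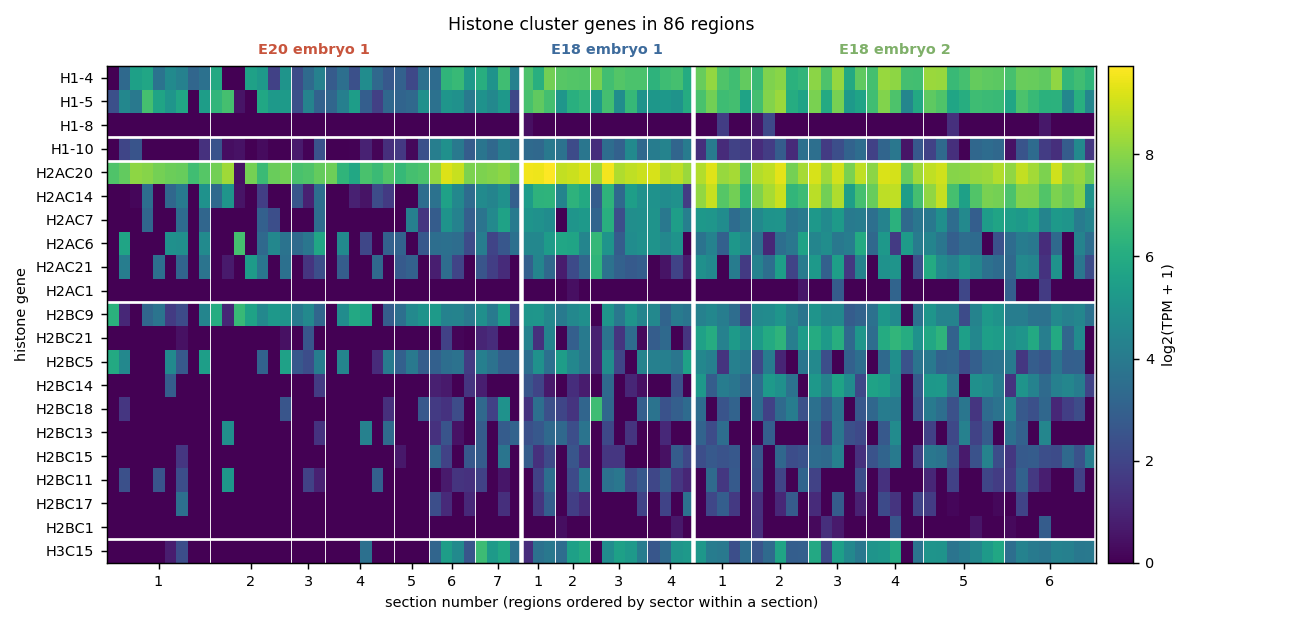
Level of 21 histone genes in each of 86 regions, as log2(TPM + 1) by color, with genes in rows grouped by family and regions in columns by embryo, section and sector. The E20 columns of sections 1 to 5 are dark for most H2B genes and for H3C15, H2AC20 is bright in 85 of 86 regions at 1 TPM or more, and H1-8, H2AC1 and H2BC1 are dark in nearly every region.

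**Figure D2:**
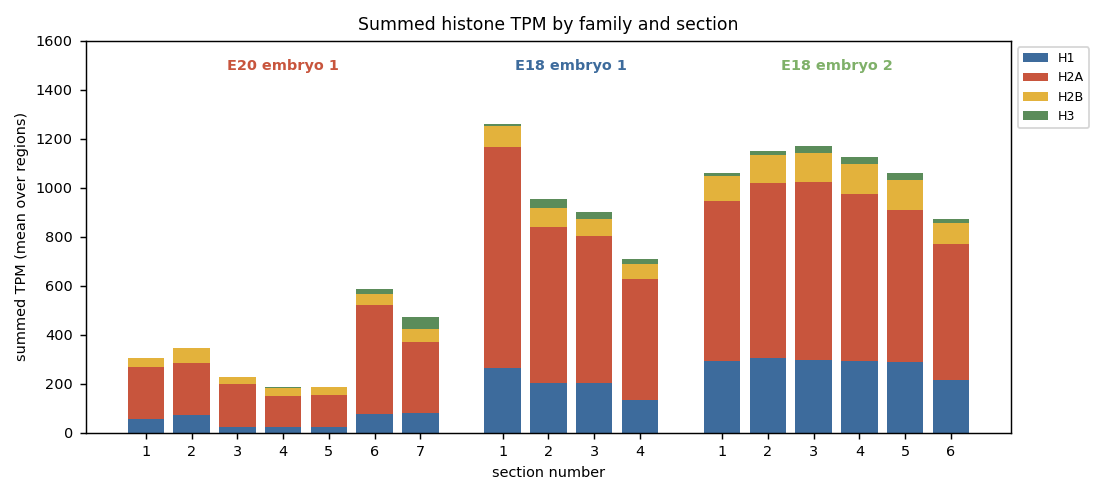
Summed TPM of the 20 members of the clusters by section, as the mean over the regions of a section, stacked by histone family. They summed to between 184 and 344 TPM in E20 sections 1 to 5, 585 and 473 TPM in E20 sections 6 and 7, and between 709 and 1261 TPM in the E18 sections.

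Between the stages, the histone cluster genes stood lower in the E20 embryo than in the E18 embryos. This comparison was known when the genes were chosen and has 1 embryo at E20, so its values are a description with no test. For each embryo the mean of log2(TPM + 1) over its regions was taken, and a gene was counted as apart where the E20 mean was at least 1 log2 unit from both E18 means on the same side. All 19 members that passed the filter had a difference below 0, as had 75.2% of all 15216 genes, with a median of -1.50 for the members and -0.44 for all genes. Of the 19 members, 11 were apart on the lower side, against 15.7% of all genes, and 0 on the higher side, against 3.82%. Members that passed the filter mostly through E18 regions had to be lower at E20, so these counts support nothing on their own. After quantile normalization, which moved the median of all genes to -0.06, all 19 members stayed below 0 and 8 were apart on the lower side, against 7.69% of all genes.

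H2AC14, an H2A gene, had the largest difference. Its TPM had a lowest value of 0, a median of 3.14 and a highest value of 46.7 in the E20 embryo, against 2.32, 30.5 and 80.3 in E18 embryo 1 and 31.3, 202 and 491 in E18 embryo 2. The highest E20 regions lay within the range of both E18 embryos, and E18 embryo 2 lay mostly above E18 embryo 1. The difference of E20 minus E18 was -4.06 log2 units. H2BC21, an H2B gene that neighbors H2AC20 in the RefSeq annotation, had 0, 0 and 5.16 TPM as lowest, median and highest values in the E20 embryo, against 0, 6.30 and 20.04 TPM in E18 embryo 1 and 0, 39.0 and 84.2 TPM in E18 embryo 2. It was listed at 0 in 29 of 36 E20 regions, 2 of 15 regions of E18 embryo 1 and 1 of 35 of E18 embryo 2, and its difference was -3.44.

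H1-4 had 0, 11.6 and 107.6 TPM as lowest, median and highest values in the E20 embryo, against 62.4, 125 and 215 TPM in E18 embryo 1 and 59.7, 158 and 309 TPM in E18 embryo 2. Most E20 regions thus lay below every E18 region, with an overlap at the top of the E20 range, and the difference was -3.21. H1-5, a second replication-linked linker histone, had 0, 20.5 and 115 TPM in the E20 embryo, 26.2, 62.7 and 162 TPM in E18 embryo 1 and 20.9, 96.3 and 309 TPM in E18 embryo 2, with overlap and a difference of -2.12. The other large differences were those of H2AC7 (-2.85), H3C15 (-2.82), and H2BC14 (-2.15), an H2B gene that was counted as not apart because its mean in E18 embryo 1 was also low. The smallest differences were those of H2BC9 (-0.34), H2BC17 (-0.61), H2BC13 (-0.81), H2BC11 (-0.89), H2BC5 (-0.91) and H2BC15 (-1.40), all H2B genes. For H2BC17, H2BC13, H2BC11 and H2BC15 the E18 means of log2(TPM + 1) lay between 0.753 and 2.46. A mean on this scale cannot go below 0, so a larger difference had little room. With a pseudocount of 0.1 the median difference was -2.61 for the members and -0.95 for all genes.

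H2AC20, the most abundant member, had a difference of -1.46. H1-10, a linker histone gene outside the clusters, had a difference of -1.50 and was not apart from E18 embryo 2 by 1 log2 unit. It had 0, 0.524 and 28.7 TPM as lowest, median and highest values in the E20 embryo, 1.41, 10.2 and 23.8 TPM in E18 embryo 1 and 0.0456, 4.01 and 23.1 TPM in E18 embryo 2. The highest of all its values was thus an E20 one.

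Among the other abundant members, H2AC7 had 0, 0 and 48.1 TPM as lowest, median and highest values in the E20 embryo, 0, 27.9 and 69.3 TPM in E18 embryo 1 and 6.47, 23.2 and 72.7 TPM in E18 embryo 2. It was listed at 0 in 20 of 36 E20 regions and in 1 of the 50 E18 regions. H2AC6 had 0, 7.33 and 114 TPM in the E20 embryo, 0, 28.8 and 88.8 TPM in E18 embryo 1 and 0, 13.1 and 61.4 TPM in E18 embryo 2, with ranges that overlapped throughout. H2BC9, the member with the smallest difference, had 0, 19.2 and 94.4 TPM in the E20 embryo, 0, 22.2 and 33.2 TPM in E18 embryo 1 and 0, 19.3 and 37.2 TPM in E18 embryo 2. Its medians lay close together and its highest value was an E20 one. H2BC5 had 0, 6.31 and 59.2 TPM in the E20 embryo, 0, 17.5 and 46.7 TPM in E18 embryo 1 and 0, 7.43 and 27.6 TPM in E18 embryo 2. H2AC21, whose reads may be shared with the overlapping H2AC20, had 0, 1.03 and 39.2 TPM in the E20 embryo, 0, 6.47 and 81.4 TPM in E18 embryo 1 and 0, 15.97 and 61.2 TPM in E18 embryo 2.

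The low H2B genes were at 1 TPM or more in few E20 regions. H2BC14 reached it in 3 of 36 E20 regions, 6 of 15 regions of E18 embryo 1 and 32 of 35 of E18 embryo 2. H2BC15 did so in 6, 9 and 30 regions and H2BC18 in 10, 13 and 30 regions, in the same order. H2BC13, H2BC11 and H2BC17 did so in 9, 9 and 5 E20 regions, 9, 12 and 7 regions of E18 embryo 1 and 19, 17 and 13 of E18 embryo 2. The 3 members that did not pass the filter, H1-8, H2AC1 and H2BC1, were listed at 0 in all 36 E20 regions, and their highest values, 3.49, 7.79 and 6.05 TPM, were in E18 embryo 2. H2AC1 and H2BC1 are neighbors in the RefSeq annotation and are known for their expression in the testis.

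**Figure D3:**
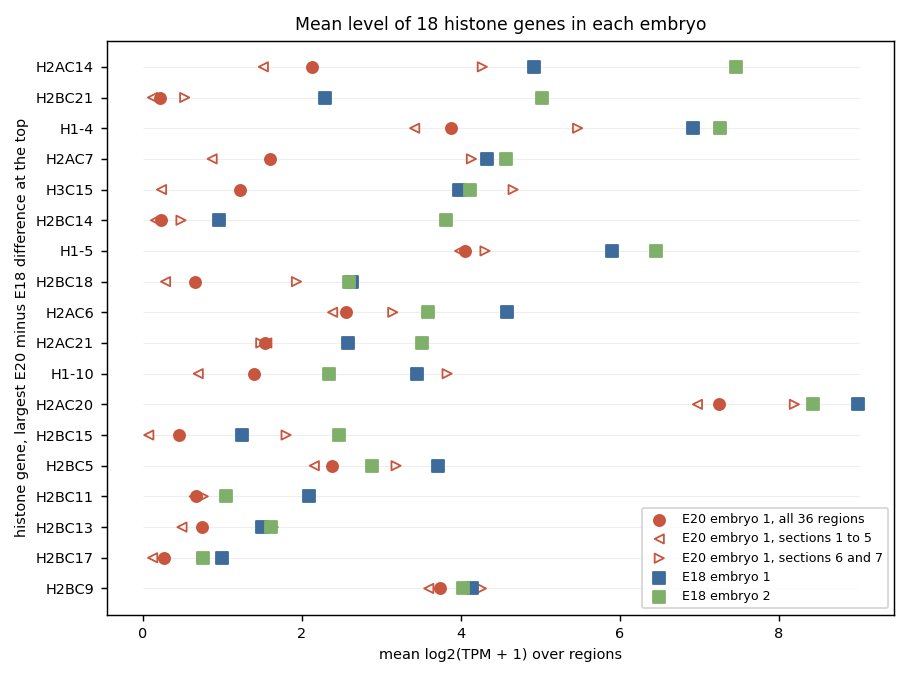
Mean log2(TPM + 1) of 18 members that passed the filter, with the E20 embryo as circles, its sections 1 to 5 and 6 to 7 as open left and right triangles, and the E18 embryos as squares. The circles lie left of both squares for every gene, and the right triangles of H3C15, H1-10, H2BC13 and H2BC9 lie to the right of the mean of the 2 squares.

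The E20 regions were not alike. Sections 6 and 7 (8 regions) stood apart from sections 1 to 5 (28 regions), a split chosen after seeing the data. With sections 6 and 7 alone, the median difference of the members from E18 was -0.68, against -0.22 for all genes, and 4 members were apart on the lower side (H1-4, H1-5, H2AC21 and H2BC21), against 1.04% of all genes. With sections 1 to 5 alone, it was -1.78, against -0.50 for all genes, and 14 members were apart on the lower side, against 21.7% of all genes. In sections 6 and 7 alone H3C15 was above E18 by 0.62, H1-10 by 0.93, H2BC9 by 0.17 and H2BC13 by 0.08, while H2BC21 remained below it at -3.13. The cell type markers moved with this split. The summed level of the 8 yolk sac endoderm markers ran from 80.6 to 132365 TPM in sections 1 to 5 and from 6.01 to 156 TPM in sections 6 and 7, against 3.71 to 5789 TPM in the E18 embryos. The summed level of the 7 pluripotent epiblast markers ran from 2.28 to 58.0 TPM in sections 1 to 5 and from 31.7 to 839.8 TPM in sections 6 and 7, against 40.6 to 1317 TPM in the E18 embryos. In sections 1 to 5 the median was below 1 TPM for 5 of the 7 epiblast markers, and 3 of 5 primitive streak markers were listed at 0 in every region. The number of genes at 1 TPM or more moved with the split as well. It ran from 6194 to 10674 in sections 1 to 5 and from 10046 to 10950 in sections 6 and 7, against 7815 to 13958 in the E18 embryos. The part of the cell types and of the number of genes detected in these differences was not tested.

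The 2 E18 embryos also differed from each other. H2BC14 was higher in embryo 2 than in embryo 1 by 2.86 log2 units, H2BC21 by 2.73, H2AC14 by 2.54 and H2BC15 by 1.21, so 4 of 19 members were at least 1 higher, against 10.9% of all genes. H1-10 was lower by -1.10, H2BC11 by -1.04 and H2AC6 by -1.0002, so 3 of 19 were at least 1 lower, against 1.36% of all genes. H2BC14 had 0, 17.7 and 49.1 TPM as lowest, median and highest values in embryo 2, against 0, 0.607 and 9.06 TPM in embryo 1. The ranges overlapped at the bottom. With 1 embryo on each side there is no test. The median difference over all genes was 0.41 and over the members 0.12. Mitochondrially encoded genes held 31.5% of the summed TPM in embryo 2 and 16.9% in embryo 1, and their part in these differences was not tested.

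Among the sections of an embryo, 3 members differed, and within the E20 embryo all 3 had their highest section means in sections 6 and 7. Log2 values were fitted with limma with embryo as a block, and sections within an embryo were compared by a moderated F test with Benjamini-Hochberg adjustment over all 15216 genes. Regions of an embryo were treated as independent beyond the block, so p-values are too small where they are not. Of 19 members 3 passed, against 12% of all genes. H3C15, a canonical H3 gene, had F = 6.84 (limma, adjusted p = 1.01e-06), H1-10 had F = 4.54 (limma, adjusted p = 0.000255) and H2AC7 had F = 4.04 (limma, adjusted p = 0.000888). The other 16 members did not pass. Without E20 section 2 sector 3, the region with the fewest genes at 1 TPM (6194), H2AC20 also passed (limma, F = 3.24, adjusted p = 0.00721), against F = 1.38 and an adjusted p of 0.489 with it.

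H3C15 was listed at 0 in 25 of the 28 regions of E20 sections 1 to 5, with a highest value of 11.1 TPM there. In the 4 regions of section 6 it ran from 4.85 to 41.7 TPM and in the 4 of section 7 from 11.9 to 100.1 TPM. The regions of sections 6 and 7 lay within the E18 range or above it, since the E18 embryos had lowest, median and highest values of 0, 16.2 and 58.6 TPM (embryo 1) and 0, 15.8 and 59.4 TPM (embryo 2). H1-10 had at most 4.75 TPM in E20 sections 1 to 5, from 6.28 to 28.7 TPM in section 6 and from 8.66 to 15.9 TPM in section 7, so the 2 sets of regions did not overlap. H2AC7 was listed at 0 in 20 of the 28 regions of sections 1 to 5, including all 6 of section 4, and its highest value there was 18.1 TPM. It ran from 6.20 to 31.3 TPM in section 6 and from 12.6 to 48.1 TPM in section 7, overlapping with the top of sections 1 to 5.

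H2AC20, for which the test turned on 1 region, ran from 56.2 to 192 TPM in E20 section 4 and from 223 to 591 TPM in section 6. Those 2 sections did not overlap. In E20 section 2 sector 3, where H2AC20 was at 0.366 TPM, H1-4 was listed at 0, H2BC9 was at 94.4 TPM and H2AC6 at 114 TPM, the highest values of both genes in the 86 regions, and 2 of the 22 members reached 1 TPM. Over the E20 embryo 9.42 ± 4.07 members reached 1 TPM per region (SD, n = 36), against 15.8 ± 2.54 in E18 embryo 1 and 16.9 ± 2.32 in E18 embryo 2. In E20 sections 6 and 7 between 12 and 17 members did so, and in sections 1 to 5 between 2 and 14.

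The E20 embryo carried these calls. Fitted alone, it gave 5 of 19 members, against 18.5% of all genes, the others being 2 H2B genes, H2BC15 (limma, adjusted p = 0.0107) and H2BC18 (limma, adjusted p = 0.0429). Fitted without it, or with either E18 embryo alone, limma called 0 members, and in the E18 embryos alone it called 0 of the 15216 genes, with 675 genes in embryo 1 and 345 in embryo 2 at an unadjusted p under 0.05. H2BC15 was listed at 0 in all regions of E20 sections 2, 3 and 4, and reached 8.43 TPM in section 6 and 12.9 TPM in section 7.

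Along section number, with the first section of each embryo set to 0 and its last to 1, H3C15, H1-10 and H2AC7 rose and 0 members fell. The slope of H3C15 was 2.13 ± 0.46 log2 units (SE; limma, adjusted p = 0.00162), that of H1-10 1.42 ± 0.37 (limma, adjusted p = 0.00712) and that of H2AC7 1.40 ± 0.43 (limma, adjusted p = 0.0228). Rising slopes passed for 8.81% of all genes and falling slopes for 1.89%, so 3 of 19 rising is set against 8.81%. The slopes of H3C15 were 4.36 in the E20 embryo, 0.64 in E18 embryo 1 and 0.58 in E18 embryo 2. Those of H1-10 were 3.14, 0.34 and 0.19, and those of H2AC7 3.09, 0.09 and 0.29, in the same order. All 3 calls were lost without the E20 embryo, with sections 6 and 7 of E20 as a block of their own, with section means in place of regions, and with 1 slope per embryo tested against 0. In these 4 fits limma called 9, 6, 27 and 0 of the 15216 genes, against 1628 with the regions of the 3 embryos together, so the loss was not particular to the members. With the count of genes at 1 TPM in the fit, H3C15 alone passed (limma, adjusted p = 0.0227).

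**Figure D4:**
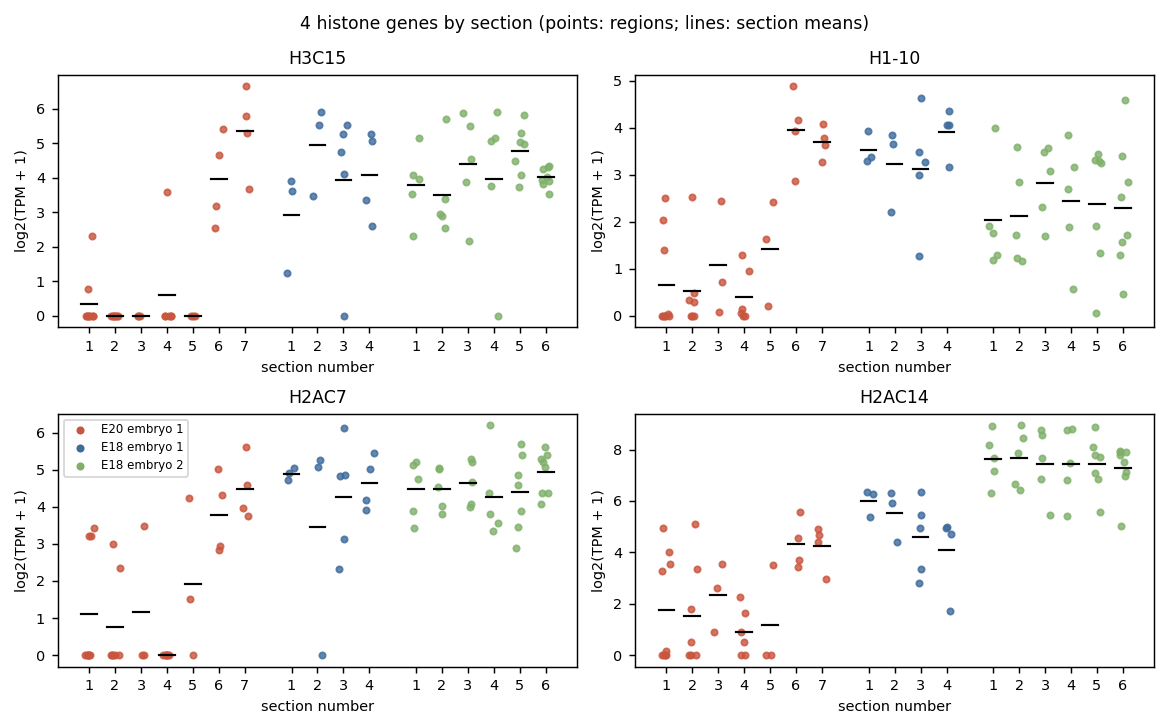
Log2(TPM + 1) of H3C15, H1-10, H2AC7 and H2AC14 in each region (points) and the mean of each section (lines), by section number, with the E20 embryo at the left. H3C15, H1-10 and H2AC7 are at or near 0 in most regions of E20 sections 1 to 5 and lie at the E18 level in sections 6 and 7, and H2AC14 lies highest in E18 embryo 2.

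The section slopes differed between the 3 embryos for 5 of 19 members, against 10.1% of all genes (moderated F in limma, a comparison added after seeing the data). They were H3C15 (adjusted p = 0.00614), H1-10 (adjusted p = 0.00789), H2BC13 (adjusted p = 0.0189), H2AC14 (adjusted p = 0.0219) and H2AC7 (adjusted p = 0.0383), all by limma. H2AC14 had a slope of 2.22 in the E20 embryo, -2.02 in E18 embryo 1 and -0.37 in E18 embryo 2. In E20 its highest section means were those of sections 6 and 7, with 22.6 and 20.1 TPM, while in E18 embryo 1 the section means were 66.0, 52.3, 33.5 and 21.9 TPM from section 1 to section 4. H2BC13, an H2B gene, had slopes of 1.54, -3.03 and 0.03 in the E20 embryo, E18 embryo 1 and E18 embryo 2. It was listed at 0 in 26 of 36, 6 of 15 and 16 of 35 regions in the same order, so its slopes rest on low values. The summed level of the 20 members in E18 embryo 1 had section means of 1261, 956, 899 and 709 TPM from section 1 to section 4, the same order as H2AC14.

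Along sector number within a section, limma called 0 of 19 members with the 3 embryos together, and 0 at an unadjusted p under 0.05. Slopes ran from -0.67 to 0.59 log2 units, and the smallest adjusted p was 0.350. Among all genes 2.48% rose and 0.762% fell along sectors. The sector slopes differed between embryos for 0 of 19 members, against 0.48% of all genes. In E18 embryo 2 fitted alone, H1-5 fell with a slope of -1.49 ± 0.38 (SE; limma, adjusted p = 0.00776) and H2AC14 with -1.59 ± 0.45 (limma, adjusted p = 0.0174), so 2 of 19 fell, against 4.76% of all genes. Their slopes in the E20 embryo were -0.22 and 0.63, and in E18 embryo 1 they were 0.37 and 0.23. Of all 19 members, 2 had a sector slope above 0 in E18 embryo 2, 12 in the E20 embryo and 13 in E18 embryo 1. The median slope of the members was -0.72, 0.18 and 0.20 in that order, against -0.01, 0.15 and 0 for all genes. In E18 embryo 2, 8 of the 19 had an unadjusted p under 0.05 by limma, against 3871 of the 15216 genes.

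Within embryos the members followed the S phase genes to different degrees. A score was made for each region as the mean z-score within its embryo of 14 S phase genes, among them the MCM helicase subunits, which open DNA for replication, and PCNA, the clamp of DNA polymerase. Pearson's r over the 86 regions, after centring on each embryo, is given as a description with no test, since regions share depth, RNA quality and cell make-up. Of 19 members 18 had r above 0, as had 59.9% of all genes, and the median r was 0.374 for the members and 0.0845 for all genes. H2AC14 had the highest r, 0.632, followed by H3C15 with 0.555, H2BC9 with 0.540 and H2BC15 with 0.515. The lowest was H2AC6 with -0.00623. H2BC9, which differed least between the stages, was thus among the members closest to the S phase score.

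H2AC14 followed the score with r = 0.518 in the E20 embryo, 0.738 in E18 embryo 1 and 0.893 in E18 embryo 2. H2AC20 had r = 0.170 in the E20 embryo, 0.579 in E18 embryo 1 and 0.769 in E18 embryo 2. H2AC6 had r = 0.150, 0.118 and -0.238 in the same order. The median r of the members was 0.326 in the E20 embryo, 0.300 in E18 embryo 1 and 0.477 in E18 embryo 2. Centred on each section in place of each embryo, an alternative added after seeing the data, the median r over the 86 regions was 0.352 for the members and 0.0669 for all genes, so it was of like size within sections.

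**Figure D5:**
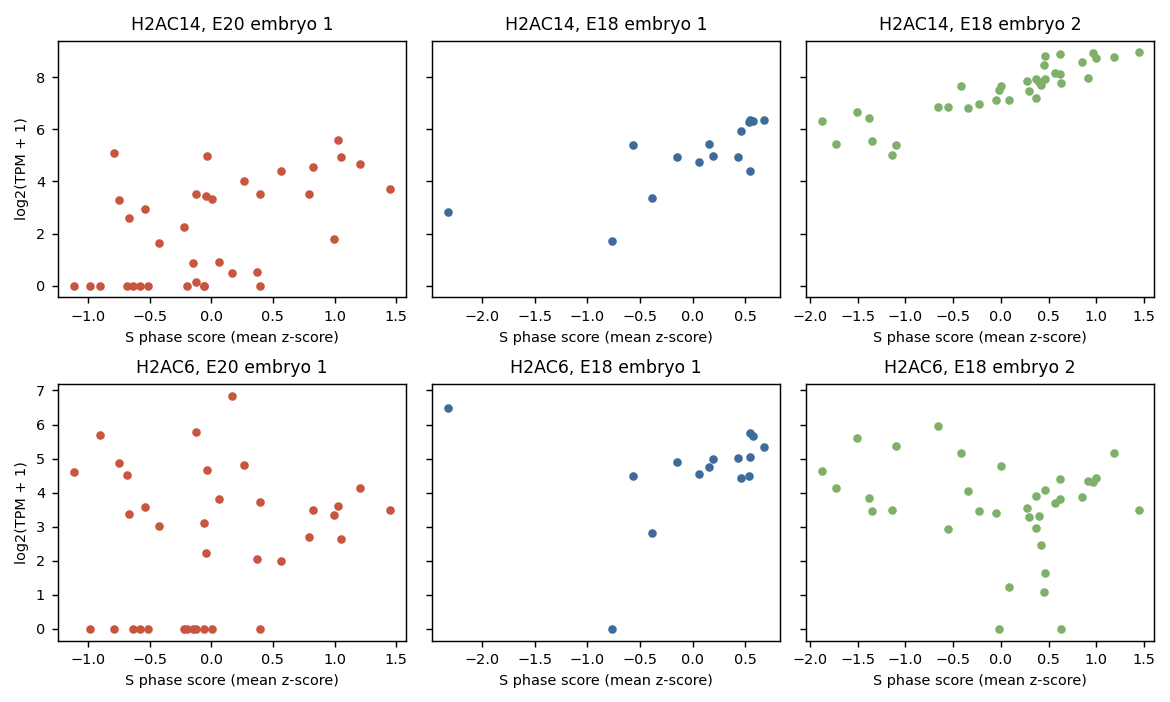
Log2(TPM + 1) of H2AC14 (top) and of H2AC6 (bottom) against the S phase score of each region, by embryo with the E20 embryo at the left. H2AC14 points rise with the score in each embryo, most closely in E18 embryo 2 (r = 0.893), while H2AC6 points show r between -0.238 and 0.150.

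Other measures moved with the members as well. The median r of the members was 0.340 with a score of 14 G2 and M phase genes, against 0.0526 for all genes, and 0.384 with a score of 21 histone chaperones, against 0.131 for all genes. It was 0.294 with the epiblast score, against 0.0667 for all genes, and -0.285 with the extraembryonic mesenchyme score, against -0.0438 for all genes. H3C15 had the highest r with the epiblast score, 0.667 over all regions and 0.888 in the E20 embryo. With the number of genes detected the median r was 0.194, against 0.179 for all genes, but by embryo it was 0.390 in the E20 embryo, 0.284 in E18 embryo 1 and -0.174 in E18 embryo 2. With the mitochondrially encoded share it was -0.186, against -0.100 for all genes, and by embryo 0.00801, -0.220 and -0.436 in the same order. The part of each measure in the r with S phase genes was not tested. Among the 171 pairs of members, 160 had r above 0, with a median of 0.204. The share over pairs of all genes was not computed. The closest pairs were H1-10 with H3C15 (r = 0.632), H2AC14 with H2AC7 (r = 0.611) and H2AC7 with H3C15 (r = 0.574).

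The genes that make, process and handle histones were read from lists chosen with earlier results known. Of 21 histone chaperones, which carry histones and load them onto DNA, 5 rose along section number, against 8.81% of all genes. They were TONSL, a reader of new histone H4 (slope 1.38 ± 0.31, SE; limma, adjusted p = 0.00221), NASP, which keeps a store of H3 and H4 (0.75 ± 0.19, adjusted p = 0.00678), CHAF1A, the large subunit of the CAF-1 loading complex (1.06 ± 0.30, adjusted p = 0.0125), CABIN1 of the HIRA complex (0.75 ± 0.22, adjusted p = 0.0178) and the importin IPO4 (0.97 ± 0.33, adjusted p = 0.0405). Of the 14 S phase genes 5 rose (MCM2, MCM5, MCM7, CDC45 and CDT1), against 8.81% of all genes, with slopes from 1.11 to 1.40. CDT1, a licensing factor of replication origins, also fell along sectors with a slope of -1.24 ± 0.37 (SE; limma, adjusted p = 0.0396). It was 1 of 14 to fall there, against 0.762% of all genes. Without the E20 embryo limma called 9 of the 15216 genes along section number, against 1628 with it. The calls of the list genes were not examined without that embryo. Of the 14 genes measured for transcription and processing of histone mRNA, 0 passed along section number, against 8.81% of all genes rising and 1.89% falling. SLBP, the stem-loop binding protein, had a slope of 0.76 ± 0.28 (SE; limma, adjusted p = 0.0620).

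Of 8 histone genes outside the symbol rule, 1 rose along sections, against 8.81% of all genes. It was the macroH2A gene MACROH2A2 (slope 1.76 ± 0.48, SE; limma, adjusted p = 0.00993). Between the stages, H2AX, the H2A variant phosphorylated at DNA breaks, had a difference of -3.02 and MACROH2A2 one of -1.63, and these 2 of the 8 were apart on the lower side. H2AZ1, an H2A variant made throughout the cell cycle from a polyadenylated mRNA, had a difference of 0.27 and SLBP one of 0.21. On the lower side, 7 of 21 chaperones were apart, 6 of 14 S phase genes, 4 of 14 G2 and M phase genes and 2 of 14 genes of histone mRNA transcription and processing (SRRT and POU2F1), against 15.7% of all genes. The median difference of the S phase list was -1.13 over all E20 regions, 0.05 with sections 6 and 7 alone and -1.51 with sections 1 to 5 alone. The median of the histone members was -1.50, -0.68 and -1.78 in the same order, and that of all genes -0.44, -0.22 and -0.50. With sections 6 and 7 alone, 15 of 19 members were below E18, as were 69.1% of all genes.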

How the data were processed

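The deposited table holds TPM per gene and region, as the authors computed them. The submitters' processing notes list the tools fastp, HISAT2 and StringTie with no version. The genome build is not given in the sources used here. Columns summed to between 495547 and 777987 TPM, and 0 columns were left unmatched to the labels. TPM keep no counts, so depth, counting intervals and floors cannot be given. The members and gene lists were chosen with earlier results of these data known. Values were tested as log2(TPM + 1) after a filter of 1 TPM in 10 regions (15216 genes), with limma 3.58.1 in R 4.3.3 (eBayes with a trend) and Benjamini-Hochberg adjustment at 0.05. Scores and correlations used numpy 2.4.6 and pandas 2.3.3 in Python 3.11.15, and pictures matplotlib 3.10.9. The fits were tested on simulated data with known effects in 200 genes.

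Named members are the 12 of highest mean TPM, those called in a test, the 6 largest and 6 smallest stage differences, H1-10, and up to 4 called genes of each list by size of effect. Further ones are named where a count is 5 or fewer, after their values were seen. Values of 1 member are not reported here; counts and medians over members include it. The alternatives tried were no filter or one of 5 TPM in 20 regions, a pseudocount of 0.1, quantile normalization, removal of mitochondrially encoded genes, covariates, embryo slopes, section means, medians and each embryo left out in turn. Chosen after seeing the data were each embryo alone, slopes compared between embryos, E20 sections 1 to 5 or 6 and 7 alone or as blocks, 1 region left out, and centring on sections. The embryo is the animal, and E20 has 1.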

Additional observations from a re-analysis of the deposited data

Results flagged for a closer look

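Section slopes differed between the 3 embryos for 5 members by a moderated F test in limma. H3C15 had an adjusted p of 0.00614, H1-10 one of 0.00789, H2BC13 one of 0.0189, H2AC14 one of 0.0219 and H2AC7 one of 0.0383. Each had its steepest rise in the E20 embryo. For H2BC13 and H2AC14 the difference also came from a fall in E18 embryo 1, with slopes of -3.03 and -2.02. The fall of H2BC13 was larger than its rise of 1.54 in the E20 embryo.

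Single regions lay far above the others of their section in 13 of 104 sets of a gene and a section (8 quantities). The limits used assume normally distributed values. TPM with many values at 0 are not so distributed, so the count of 13 cannot be set against chance. In E20, H1-4 was at 25.96 TPM in section 4 sector 4 against at most 10.7 TPM in the other 5 regions. H1-5 was at 115 TPM in section 1 sector 4 against at most 53.5 TPM, and at 42.3 TPM in section 4 sector 3 against at most 17.2 TPM. H2AC14 was at 33.0 TPM in section 2 sector 2 against at most 9.07 TPM. H3C15 was at 3.97 TPM in section 1 sector 7 against at most 0.701 TPM, and at 11.1 TPM in section 4 sector 4, where the other 5 regions were listed at 0. H1-10 was at 4.75 TPM in section 2 sector 1 against at most 0.408 TPM. Sector 4 of section 4 thus stood high for both H1-4 and H3C15.

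In E18 embryo 1, H1-4 was at 215 TPM in section 3 sector 1 against at most 138 TPM, and H1-5 at 62.7 TPM in section 4 sector 4 against at most 35.9 TPM. In E18 embryo 2, H3C15 was at 50.7 TPM in section 2 sector 3 against at most 9.34 TPM, and H2AC7 at 72.7 TPM in section 4 sector 3 against at most 19.7 TPM. H1-10 was there at 15.1 TPM in section 1 sector 2 against at most 2.79 TPM, and at 23.1 TPM in section 6 sector 7 against at most 9.54 TPM.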

How the results depend on the processing

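The count of members differing among sections, 3 of 19, ran from 0 to 5 when each embryo was left out: 0 without the E20 embryo and 5 without E18 embryo 2. It was 5 in the E20 embryo alone and 0 in either E18 embryo alone. With the count of detected genes in the fit it was 2, where 936 of the 15216 genes passed. The count with a section trend, 3, ran from 0 without the E20 embryo to 4 without either E18 embryo. It was 2 with the S phase score in the fit, where 1250 of the 15216 genes passed. With the count of detected genes in the fit it was 1, where 502 genes passed. In the E20 embryo alone it was 5, where 3909 of the 15216 genes passed. It was 0 with embryo slopes tested against 0, with section means and with sections 6 and 7 of E20 as their own block. It was also 0 in either E18 embryo alone. Embryo slopes leave 3 values per gene, and limma then called 0 of all genes. The sector count, 0, was 2 in E18 embryo 2 alone and 0 in the other alternatives.

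The count of members lower at E20 than both E18 embryos, 11, was 17 with a pseudocount of 0.1 (31.5% of all genes), 4 with E20 sections 6 and 7 alone (1.04%) and 9 without E20 section 2 sector 3 (15.2%). It ran from 13 without E18 embryo 1 (33.0%) to 14 without E18 embryo 2 (18.5%). With sections 6 and 7 alone, the differences of H1-10 (0.93), H3C15 (0.62), H2BC9 (0.17) and H2BC13 (0.083) turned above 0. Family sums and the median r with S phase genes, which was 0.285 after quantile normalization and 0.354 with a pseudocount of 0.1, kept their direction. Read depth is unknown, so values listed at 0 may lie below detection. No paired analysis was possible because the replicate number of a group names an embryo and E20 has 1.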

Other observations

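In E18 embryo 1 section 3 sector 1, 4 members reached their highest level of that embryo. H1-4 was at 215 TPM there, H2AC6 at 88.8 TPM, H2AC21 at 81.4 TPM and H2BC18 at 104 TPM, the last 2 being the highest values of those genes over all 86 regions. H2BC9 and H3C15 were listed at 0 in the same region. It had 7815 genes at 1 TPM or more, the fewest of the 50 E18 regions, and an S phase score of -2.33, the lowest of that embryo, and their part in these levels was not tested. No test was made of this region, which was chosen for its values.

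In E20 sections 1 to 5 H2BC9 held 8.94% of the summed level of the 20 members, against 2.24% in E18 embryo 1 and 1.75% in E18 embryo 2. In E20 sections 6 and 7 it held 4.17%.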
